A study of Mus musculus with 194 samples.

Results

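The pre-B receptor and B-lineage genes followed here are 9 genes whose rows were read by symbol from the deposited expression table: Vpreb1, Vpreb2, Vpreb3, Igll1, Cd79a, Cd79b, Pax5, Ebf1 and Rag1. They are 9 of 23420 gene rows in the table. They were chosen with earlier results of these data in view, namely their shares of L1210 cells, the likeness of Vpreb3 within lineages and a relation of Vpreb2 to time since division, so those values are given as a description without a test.

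The study loaded single mouse cells into separate lanes of a microfluidic trap array, let each divide under the microscope, and released the progeny one by one for Smart-Seq2, a protocol that copies and amplifies polyadenylated RNA cell by cell. The line L1210 is an established lymphocytic leukemia line, labelled as derived from DBA subline 212, and was grown in the device without stimulation. The contrast is with primary CD8+ T-cells from the spleens of C57BL/6J mice of both sexes and several ages, activated for 30 h with antibodies against CD3 and CD28 before loading and grown with IL2. The cells of the various mice were not separated in the labels and the L1210 culture is not named, so each cell type counts as 1 sample and L1210 is compared with CD8 without a test. Within a cell type, the lineage, all progeny of 1 founding cell in 1 lane, is the unit of replication. The F-test between lineages takes its error from the cells within them.

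After removal of doublets and of libraries with fewer than 1000 genes above 0 TPM (transcript abundance scaled to a fixed total in each library), 81 of 88 L1210 libraries and 97 CD8+ T-cell libraries remained. The L1210 cells formed 26 lineages, with 4 cells in 14 of them, 3 in 3, 2 in 7 and a lone cell in 2. They had 1610 to 10454 detected genes (median 8402), and the CD8+ T-cells had 2639 to 10905 (median 6862). TPM hold no read depth, so detected genes stand for it here. The L1210 libraries L1210_15, L1210_8, L1210_26 and L1210_27 had under 4000 detected genes and stood apart from the rest. Values without them are given where they changed a result. At the threshold, the library just inside had 1610 detected genes and the library just outside, L1210_83, had 801 and all 9 members at 0.

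A developing B cell that has joined the segments of its heavy chain gene tests the product in a pre-B receptor. In it the heavy chain is paired with a surrogate light chain, made of a variable-region-like part from Vpreb1 or Vpreb2 and a constant-region-like part from Igll1, and the signal is passed on by the Cd79a and Cd79b chains. Ebf1 and Pax5 are the transcription factors that set and hold B-lineage identity, Rag1 is a subunit of the recombinase that cuts antigen receptor genes, and Vpreb3 is a related protein that binds newly made heavy chains inside the cell. The surrogate light chain genes mark the pro-B and pre-B stages and are switched off in mature B cells, in which Cd79a, Cd79b, Ebf1 and Pax5 stay on.

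Vpreb1 and Vpreb2 are near copies, and the sequence is shown because it bears on every value of either gene. Over 426 coding bases they differed at 9, an identity of 97.9%, with no gap. The 90 bases with the densest differences, coding bases 298 to 387 of the annotated GRCm38 transcripts, lie at chr16:16868638-16868727 on the minus strand for Vpreb1 and at chr16:17980949-17981038 on the plus strand for Vpreb2. Capitals mark the 5 bases that differ.
Vpreb1: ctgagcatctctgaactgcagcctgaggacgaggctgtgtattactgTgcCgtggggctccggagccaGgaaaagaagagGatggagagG
Vpreb2: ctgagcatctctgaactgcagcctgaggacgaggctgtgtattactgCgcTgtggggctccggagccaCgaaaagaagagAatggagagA
In order from the 5′ end, the differences written as Vpreb1 base, coding position and Vpreb2 base are T345C, C348T, G366C, G378A and G387A. Of the 737 windows of 30 bases in the Vpreb1 transcript, 376 (51%) also occur in Vpreb2. The reads were 30 bases at each end of a fragment. How far the estimation of transcript levels could divide fragments between both genes is uncertain, so their sum is given beside the single values where it matters.

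The members lie on 6 chromosomes (GRCm38 with the GENCODE annotation). Igll1 (ENSMUSG00000075370, chr16:16860671-16863985, minus strand) and Vpreb1 (ENSMUSG00000059305, chr16:16868403-16870843, minus strand) are separated by 4417 bases, and Vpreb2 (chr16:17980428-17981273, plus strand) lies 1109584 bases further along. Vpreb3 is at chr10:75943057-75949657 (plus), Cd79a at chr7:24897381-24902197 (plus), Cd79b at chr11:106311341-106314762 (minus), Ebf1 at chr11:44617317-45008091 (plus), Pax5 at chr4:44524757-44710487 (minus) and Rag1 at chr2:101638282-101649501 (minus). The span of Vpreb1 overlaps the oppositely oriented Top3b and that of Rag1 overlaps B230118H07Rik on the same strand. Smart-Seq2 libraries do not mark the strand, so reads of overlapping genes can be mistaken for each other. Top3b was above 0 in 60 of 97 CD8+ T-cells, in which Vpreb1 was at 0, and B230118H07Rik was above 0 in 13 of them, in which Rag1 was at 0.

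The sequence upstream of the transcription start is shown for the members whose levels are compared cell by cell below, Vpreb1, Igll1 and Vpreb3. These are the 250 bases before the RefSeq start (GRCm38.p6), at chr16:16869256-16869505 (minus), chr16:16863986-16864235 (minus) and chr10:75948050-75948299 (plus). Capitals mark matches, on either strand, to the EBF palindrome CCCNNGGG, to the octamer ATGCAAAT bound by Pou2f factors, or to the E-box CAGGTG bound by E2A.
Vpreb1: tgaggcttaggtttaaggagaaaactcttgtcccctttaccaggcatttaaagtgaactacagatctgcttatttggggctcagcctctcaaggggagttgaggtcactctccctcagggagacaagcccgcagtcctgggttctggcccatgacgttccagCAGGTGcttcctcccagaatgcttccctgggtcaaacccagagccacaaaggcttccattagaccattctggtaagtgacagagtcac
Igll1: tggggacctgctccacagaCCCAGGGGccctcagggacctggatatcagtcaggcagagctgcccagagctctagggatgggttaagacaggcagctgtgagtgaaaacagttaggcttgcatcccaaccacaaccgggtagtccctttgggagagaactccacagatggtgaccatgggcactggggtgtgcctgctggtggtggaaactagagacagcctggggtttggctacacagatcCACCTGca
Vpreb3: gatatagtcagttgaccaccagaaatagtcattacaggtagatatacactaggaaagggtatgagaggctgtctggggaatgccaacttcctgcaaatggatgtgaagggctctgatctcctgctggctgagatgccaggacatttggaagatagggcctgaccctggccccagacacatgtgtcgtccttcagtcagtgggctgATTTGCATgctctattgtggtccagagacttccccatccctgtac
The Vpreb1 window held 1 E-box, the Igll1 window 1 EBF palindrome and 1 E-box, and the Vpreb3 window 1 octamer. Of 32851 RefSeq promoter windows of this length, 11.8% held the EBF palindrome, 1.60% the octamer and 17.2% the E-box. Promoters of 8 of the 9 members were in the table. The E-box was also found for Vpreb2, Cd79a and Rag1, and none of the motifs was found for Pax5 or Ebf1. A match is a run of letters and not an observed binding site.

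All 9 members were detected in L1210 cells, 8 of them in more than 50% of the cells. That holds for 46.4% of the 18611 genes above 0 in any cell, and since the shares chose the members nothing is read from the count. Igll1 and Vpreb1 were each above 0 TPM in 78 of 81 L1210 cells (96.3%, exact binomial 95% interval 89.6 to 99.2%). Cd79a was above 0 in 80 cells, Cd79b in 79, Vpreb3 and Pax5 in 77 each and Ebf1 in 76. Vpreb2 was above 0 in 54 cells (66.7%, interval 55.3 to 76.8%) and Rag1 in 22 (27.2%, interval 17.9 to 38.2%). The intervals cover counting error only, and cells of 1 lineage are not independent.

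Co-detection was high in single cells. The components Vpreb1, Igll1, Cd79a and Cd79b were above 0 together in 77 of 81 cells, and the 4 exceptions had 3190 or fewer detected genes. In the 77 cells with 4000 or more detected genes, Vpreb1, Igll1, Cd79a and Cd79b were thus in 100% of cells. All 9 members were above 0 in 18 cells, 8 of them in 38 cells and 7 in 17 cells. The cells in which Vpreb2 was at 0 had a median of 8109 detected genes against 8631 where it was above 0, and for Rag1 the medians were 8248 and 9267.

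In CD8+ T-cells 7 of the 9 members were listed at 0 in all 97 cells, which allows a share of up to 3.09% for each by the limit of 3 cells in 97 (the exact binomial interval ends at 3.73%). Of all genes, 0.5% were in more than 50% of L1210 cells and at 0 in every CD8+ T-cell. The exceptions were the signalling chains. Cd79a was above 0 in 10 CD8+ T-cells (10.3%, interval 5.06 to 18.1%), with a maximum of 27.9 TPM, and Cd79b in 47 (48.5%, interval 38.2 to 58.8%), with a maximum of 282.6 TPM. In the plot of members by cell the CD8 strip of Cd79b points runs from 0 into the range of the L1210 cells. Only 1 CD8+ T-cell was at or above the L1210 lower quartile of Cd79b, 229 TPM. The CD8 points of Cd79a do not pass 27.9 TPM.

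**Figure D1:**
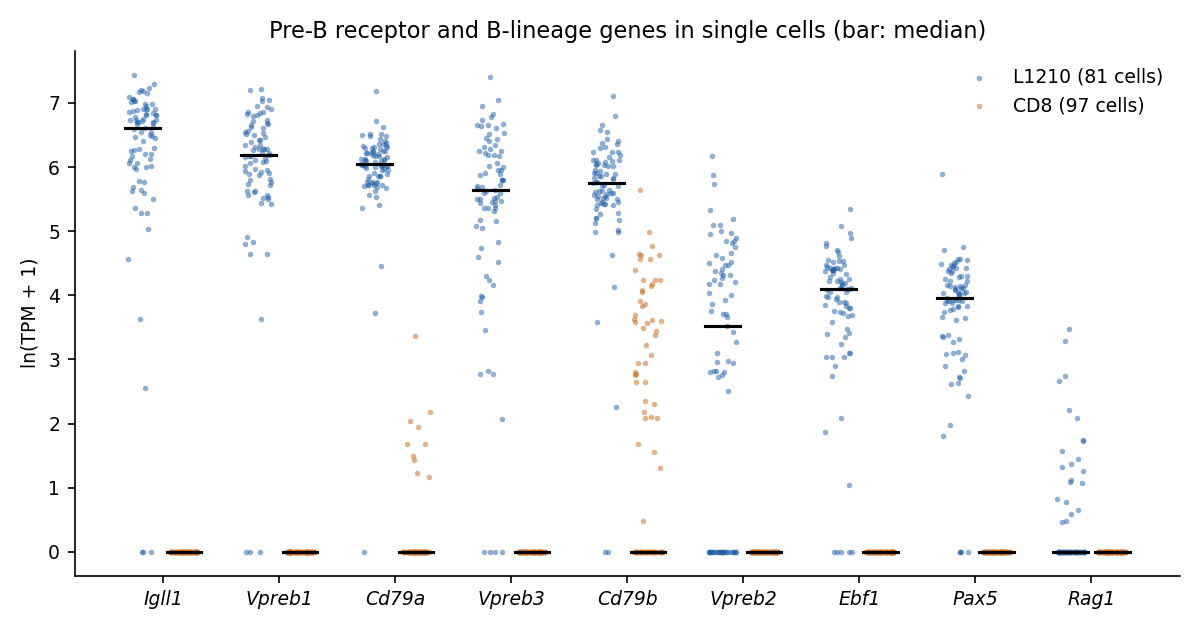
Each point is 1 cell, with ln(TPM + 1) on the vertical axis, for the 9 members in order of their mean TPM in 81 L1210 cells (blue) and for the same genes in 97 CD8 cells (orange); black bars are medians. Among the CD8 cells points leave 0 for Cd79a (10 cells) and Cd79b (47 cells), while the L1210 medians lie above 0 for every member except Rag1.

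The levels in L1210 cells fell into 3 tiers. TPM are per transcript length and can be set beside each other, and means are over 81 cells. The surrogate light chain genes led with Igll1, whose lowest, median and highest values were 0, 745.2 and 1706 TPM (mean 707 ± 328, SD over 26 lineage means), and Vpreb1, at 0, 483 and 1363 TPM (mean 537 ± 262). Next came Cd79a at 0, 426 and 1316 TPM (mean 441 ± 146), Vpreb3 at 0, 279.8 and 1649 TPM (mean 359.8 ± 246) and Cd79b at 0, 312 and 1218 TPM (mean 346 ± 122). The mean differences between consecutive members of these 5 were 0.0872 to 0.706 of their SD over lineages, and the order was not tested. Igll1 exceeded Vpreb1 in 20 of 26 lineages and Cd79a exceeded Vpreb3 in 19. Vpreb1 exceeded Cd79a in 12 of 26, and Vpreb3 exceeded Cd79b in 11. Cd79b exceeded Vpreb2 in 26 of 26 lineages, by 272 ± 115 TPM (SD).

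The next tier was lower. Vpreb2 ranged from 0 to 476 TPM (median 32.8, mean 60.6 ± 66.1), Ebf1 from 0 to 209 TPM (median 59.4, mean 59.7 ± 28.3) and Pax5 from 0 to 361 TPM (median 51.6, mean 54.3 ± 38.4). Their differences were again under the spread over lineages. The highest values of Pax5 and Ebf1 came from L1210_8, that of Vpreb3 from L1210_15 and that of Cd79b from L1210_26, all with under 4000 detected genes. Rag1 formed the last tier, at 0 to 31.1 TPM (median 0, mean 1.68 ± 3.55), and Pax5 exceeded it in 26 of 26 lineages.

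Against CD8+ T-cells, 8 members had a mean TPM + 1 at least 4 times higher in L1210 cells. Of 18611 genes, 4.74% passed the same ratio, 3.53% were at least 4 times lower, and nothing is read from the members' count since the contrast chose them. A ratio can be given only for the members seen in CD8+ T-cells. It was 259 for Cd79a, whose CD8 mean was 0.706 TPM, and 14.5 for Cd79b, whose CD8 mean was 22.96 TPM. On the log2 scale these are 8.02 and 3.86, and their size depends on the measure. Cd79a lay at 9.10 with 0.1 TPM added and at 5.40 with 10 TPM added. With medians over cells in place of means, Cd79b lay at 8.29 and Cd79a at 8.74, since the CD8 median of both is 0. Rag1 had the smallest difference, at a mean of 1.68 TPM in L1210 against values listed at 0.

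Vpreb2 was never seen without Vpreb1. Of the 81 L1210 cells, 54 had both, 24 had Vpreb1 alone, 0 had Vpreb2 alone and 3 had neither. Vpreb2 made up 0 to 48.8% of the summed TPM of the pair in a cell (median 7.58%), and 0 to 32.8% of the sum in a lineage (median 8.34%). It was above Vpreb1 in 0 cells. The 5 bases set in capitals above and the other 4 substitutions are what tells these transcripts apart in the coding part.

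The members were alike within lineages to differing degrees. As a measure of likeness, the absolute difference in ln(TPM + 1) was averaged over 38 sister and 62 cousin pairs and over 3140 pairs of different lineages. The intraclass correlation, the share of the variance that lies between lineages, was computed for each of 10534 genes that passed the expression filter, and all 9 members passed it. For Vpreb3 related cells differed by 0.875 and unrelated cells by 1.59, with 0.903 for sisters and 0.858 for cousins. Over 24 lineages of 2 or more cells the difference to relatives was lower by 45.9% ± 39.7 (SD), and it was lower in 21 of 24. Its intraclass correlation was 0.565, rank 49, with 0.465% of all genes at or above it. These are the values that chose Vpreb3 and carry no test.

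Vpreb3 in single lineages shows what that number stands for. Lineages are numbered 1 to 26 by their first library. In lineage 13 its 4 cells had 773, 846, 929 and 1040 TPM of Vpreb3. In lineage 16 the 3 cells lay between 681 and 1152 TPM. At the other end, the 4 cells of lineage 2 had 0, 15.7, 52.1 and 68.2 TPM, and the 3 cells of lineage 7 had 0, 15.04 and 41.3 TPM. The ranges of these high and low lineages were separate. They were picked for their high and low values after these were seen, so nothing is read from the separation.

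Among the lineages low in Vpreb3 the surrogate light chain genes varied. In lineage 2, Vpreb1 ran from 569 to 958 TPM and Igll1 from 652 to 931 TPM, both around or above the middle of all cells, while Vpreb3 stayed at or under 68.2 TPM. In lineage 7 Vpreb1 was lower, at 120 to 337 TPM, and Igll1 at 402 to 851 TPM. Lineage 4 was low in all of them, with Vpreb1 at 0 to 124 TPM, Vpreb3 at 0 to 52.7 TPM and Igll1 at 94.6 to 280.0 TPM, and the zeros for Vpreb1 and Vpreb3 came from L1210_27 with 3190 detected genes. Lineage 3 was the reverse, with Vpreb3 at 230 to 1649 TPM and Igll1 at 0 to 538 TPM, and its zeros for Igll1 came from L1210_15 and L1210_26, both with under 4000 detected genes.

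A lineage could also split between its sister pairs. In lineage 14 the sisters L1210_34 and L1210_67 had 247 and 431 TPM of Vpreb3, and their cousins, the sisters L1210_45 and L1210_56, had 14.9 and 6.93 TPM. Vpreb1 was between 771 and 1334 TPM in all 4 cells and Igll1 between 845 and 1166 TPM. The pair low in Vpreb3 had 13.5 and 31.1 TPM of Rag1, and the other pair had 0 and 7.01 TPM. This is 1 lineage, picked after its values were seen.

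**Figure D2:**
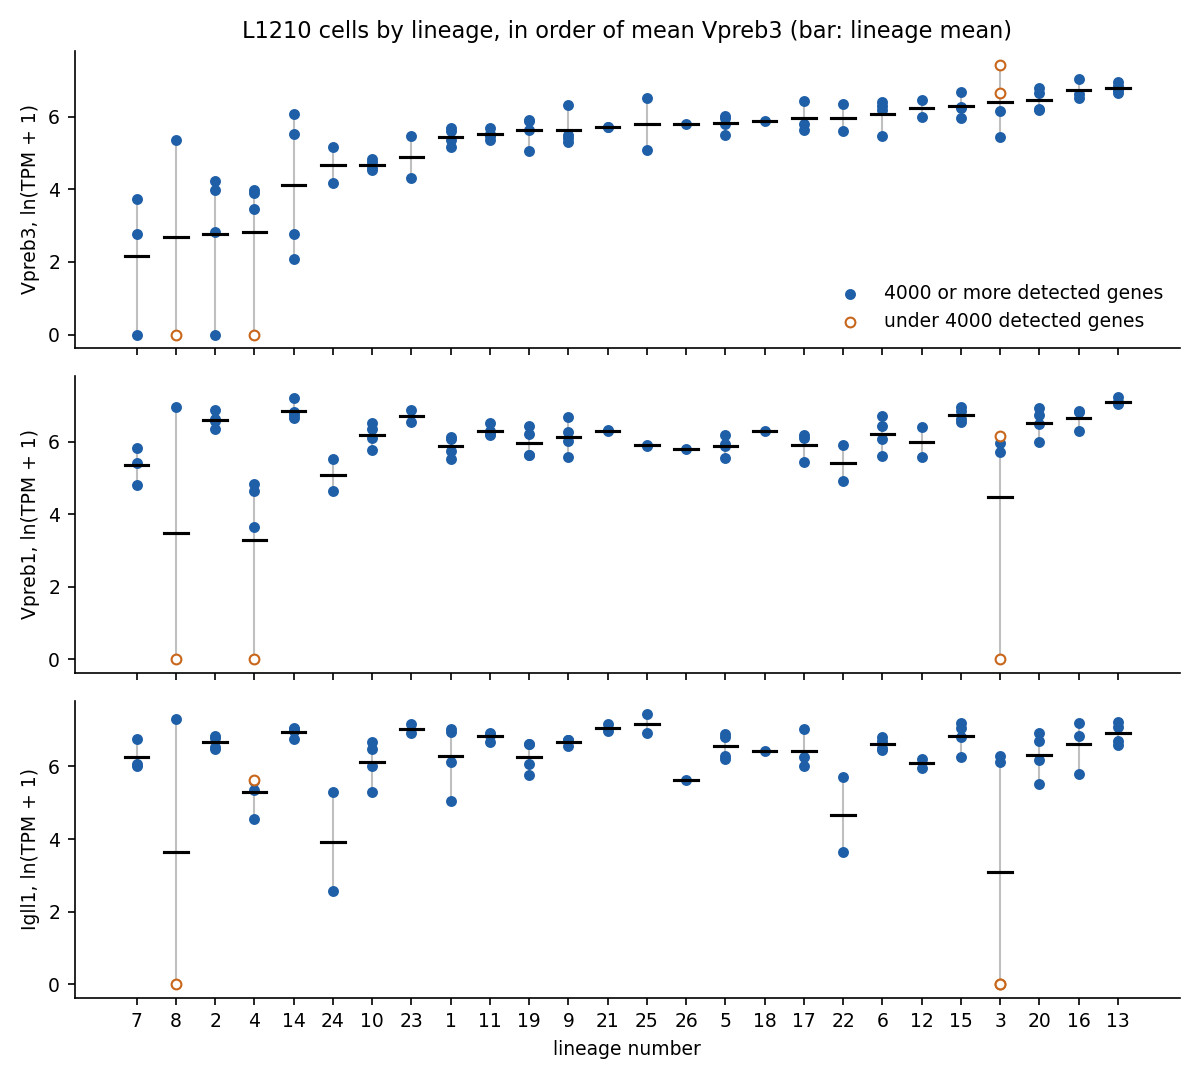
Each point is 1 of 81 L1210 cells in its lineage (26 lineages, in order of the mean ln(TPM + 1) of Vpreb3), with ln(TPM + 1) of Vpreb3, Vpreb1 and Igll1 in 3 panels; black bars are lineage means, grey lines the range and open orange circles cells with under 4000 detected genes. Lineages 7, 8, 2 and 4 lie low for Vpreb3, lineage 8 through a cell with under 4000 detected genes, and lineage 13 lies high. Vpreb1 and Igll1 do not follow that order.

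The place of the other members depended on the 4 poor libraries. Over all cells the intraclass correlation was 0.291 for Vpreb1, 0.319 for Igll1, 0.370 for Vpreb2, 0.370 for Pax5, 0.318 for Ebf1, 0.383 for Rag1, 0.176 for Cd79b and 0.107 for Cd79a. With 74 cells of 4000 or more detected genes in lineages of 2 or more such cells, a comparison added after the data were seen, Vpreb1 rose to 0.710, above Vpreb3 at 0.636. Igll1 was then at 0.533, Pax5 at 0.523, Cd79a at 0.516, Ebf1 at 0.450, Rag1 at 0.385, Vpreb2 at 0.295 and Cd79b at 0.233. The order of likeness among the members thus changed when these cells were left out.

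Relatives shared more than these genes. The number of detected genes had an intraclass correlation of 0.365 and hours since division one of 0.957. With both taken out by regression, that of Vpreb3 was 0.517, and that of Pax5 was 0.416, of Rag1 0.341, of Vpreb2 0.258, of Ebf1 0.205, of Vpreb1 0.188, of Igll1 0.159, of Cd79b 0.0746 and of Cd79a -0.0407. These values are over all 79 cells in lineages of 2 or more, the 4 poor libraries among them, and were not computed without those. What else cells of a lane share was not tested.

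Among sisters, Vpreb3 was above 0 in both and within a 2-fold range in 24 of 38 pairs, Vpreb1 in 26, Igll1 in 27 and Vpreb2 in 14. Both sisters had Vpreb2 in 19 pairs, neither in 6 and 1 of them in 13. For Vpreb3 both had it in 34 pairs and 1 of them in 4. Pairs with Vpreb2 in 1 sister only were thus about as many as pairs within 2-fold. Some of these zeros came from libraries with few detected genes, such as L1210_27 (3190) and L1210_82 (4857). Others did not, such as that of L1210_67 (8659). In some pairs the other sister was near 11.3 TPM, the lowest value above 0. Missed detection was not told apart from absence.

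The time since the last division ranged from 0.354 to 12.8 h (median 4.45 h), and Vpreb2 was lower in cells released later. The Spearman correlation over 81 cells was -0.244, and 4.40% of the genes tested had one as far or farther from 0. From 0 to 3 h, 33 cells from 10 lineages had a median of 66.4 TPM of Vpreb2 (0 to 476) and 26 were above 0. From 3 to 6 h the median of 20 cells was 36.2 TPM (0 to 207), with 15 above 0. From 6 to 9 h the median of 16 cells was 0 (maximum 163 TPM), with 7 above 0, and beyond 9 h the median of 12 cells was 27.7 TPM (0 to 353), with 6 above 0. The ranges of the windows overlap throughout. Each of the later windows rests on 6 or 7 lineages, and since relatives share their time, the cells are not independent points. The medians of detected genes in the 4 windows were 8198, 9188, 8448 and 8797, and the Spearman correlation of detected genes with hours was 0.0913.

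The other surrogate light chain genes lay on the same side. The Spearman correlation with hours was -0.222 for Vpreb1 and -0.198 for Igll1 over cells, and -0.374 and -0.346 over 26 lineage means, where it was -0.254 for Vpreb2. The sum of Vpreb1 and Vpreb2 gave -0.215 over cells. Over the 77 cells with 4000 or more detected genes the values were -0.206 for Vpreb2, -0.185 for Vpreb1 and -0.138 for Igll1. Vpreb3 lay on the other side, at 0.230 over cells and 0.257 over lineage means, with window medians of 214, 311, 493 and 303 TPM. Over cells Cd79b was at -0.183, Rag1 at -0.15, Ebf1 at 0.103, Pax5 at -0.0534 and Cd79a at 0.0511. Over lineage means Cd79b was at -0.374, like Vpreb1, so that side was not particular to the surrogate light chain genes. Rag1 was then at -0.213, Ebf1 at 0.0831, Pax5 at 0.0345 and Cd79a at 0.0694. Lineages 2 and 7, low in Vpreb3, lie wholly in the first window, as does lineage 14 with its low sister pair. Lineage 4, also low, had cells at 2.79 to 4.45 h. Lineage 8, with Vpreb3 at 0 and 213 TPM, was released at 10.3 h, and its 0 came from L1210_8 with under 4000 detected genes.

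In the fit across all genes on lineage means (limma), no gene changed with hours at an adjusted p under 0.05 (0% in either direction). At an unadjusted p under 0.05 there were 588 of 10534, 5.58%, and a fit of single cells with lineage as a random block gave 677, also with 0 past the adjusted threshold. The relation of Vpreb2 to time is a description of these cells.

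**Figure D3:**
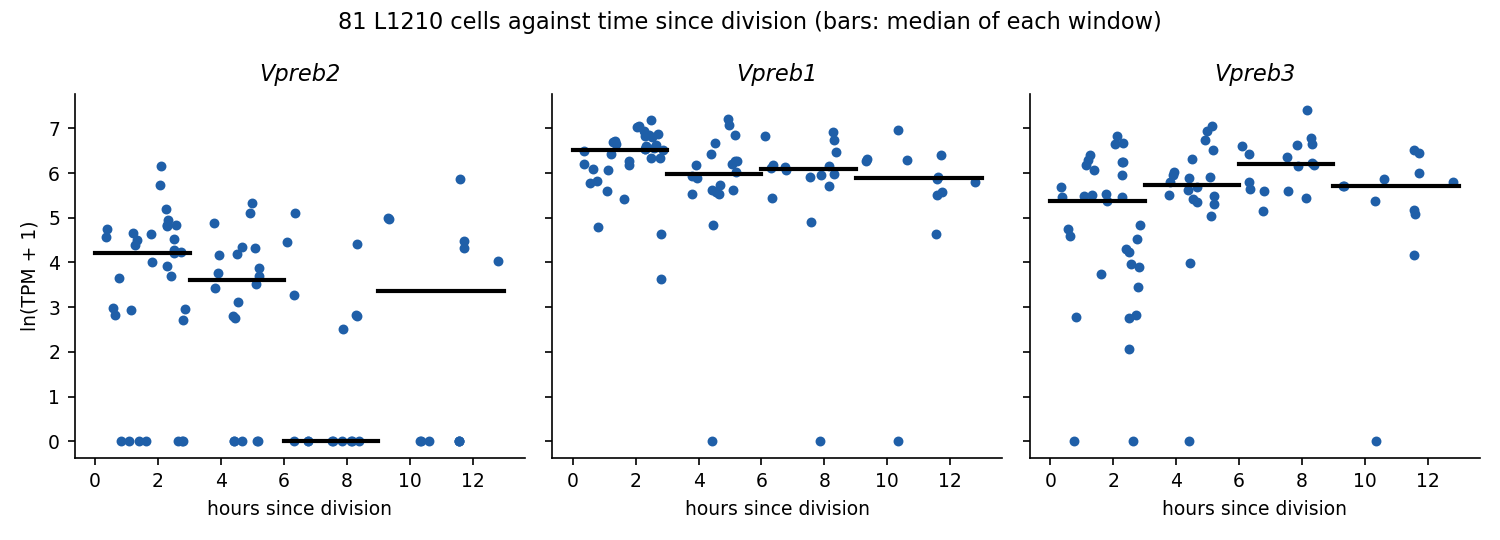
Each point is 1 of 81 L1210 cells, with hours since division on the horizontal and ln(TPM + 1) of Vpreb2, Vpreb1 and Vpreb3 on the vertical axis; black bars are the medians of the windows 0 to 3, 3 to 6, 6 to 9 and over 9 h, drawn as ln(median TPM + 1). The Vpreb2 median falls from 66.4 TPM to 0 and stands at 27.7 TPM in the last window, with points at 0 in every window.

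Across L1210 cells the members were correlated with each other to unequal degrees. The Spearman correlation over 81 cells was above 0 in 33 of the 36 pairs of members, with a median of 0.229, and these values share libraries and their detection depth. Neither the share above 0 nor the median was computed over pairs of all genes, so nothing is read from them. The highest was that of the neighbouring genes Vpreb1 and Igll1, at 0.659, at 0.634 over the 77 cells with 4000 or more detected genes, at 0.769 over lineage means and at 0.500 after lineage means were taken out. Vpreb1 and Vpreb2, which share sequence, followed at 0.514, then Igll1 and Cd79a at 0.494.

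Vpreb3 went less with the surrogate light chain. Its correlation was 0.358 with Vpreb1, 0.209 with Vpreb2 and 0.195 with Igll1, and the highest was 0.396 with Cd79a. The pairs below 0 were Vpreb3 with Rag1 (-0.253), Vpreb3 with Pax5 (-0.189) and Vpreb2 with Pax5 (-0.0147). In the scatter of Igll1 against Vpreb3, cells with high Igll1 are spread widely in Vpreb3. Examples are L1210_45 with 14.9 TPM of Vpreb3 and L1210_47 with 1040 TPM. Pax5 and Ebf1, the transcription factors, were at 0.257 with each other, and Ebf1 was at 0.0138 with Vpreb1 and 0.0938 with Igll1.

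**Figure D4:**
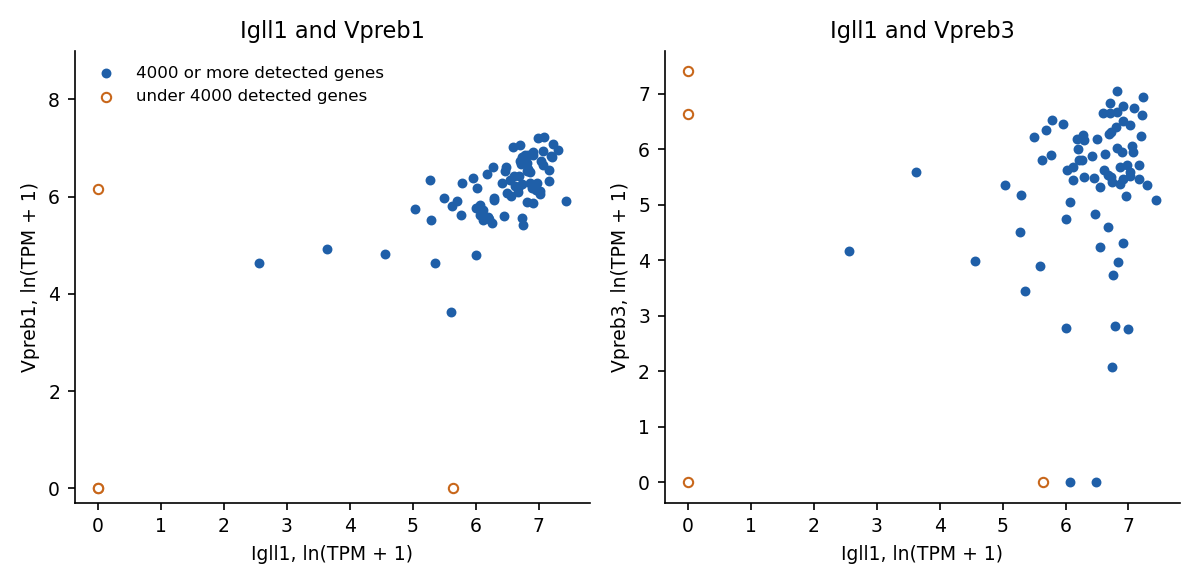
Each point is 1 of 81 L1210 cells, with ln(TPM + 1) of Igll1 on the horizontal axis and of Vpreb1 (left) or Vpreb3 (right) on the vertical axis; open orange circles are cells with under 4000 detected genes. Vpreb1 lies along a band with Igll1 (Spearman correlation 0.659), and Vpreb3 is spread at high Igll1 (0.195).

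Rag1 was low and patchy. It was above 0 in 22 cells of 10 lineages and above 10 TPM in 4 cells. Rag2, the other subunit of the recombinase, was above 0 in 18 cells, 12 of them with Rag1, and the Spearman correlation between both was 0.487. In cells with Rag1 the median of Vpreb3 was 236 TPM (6.93 to 553), and in cells without it 355 TPM (0 to 1649), so the ranges overlapped. In 16 of 26 lineages no cell had Rag1. Cells with Rag1 also had more detected genes (median 9267 against 8248), and the part of detection in this pattern was not tested.

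The genes most like 3 of the members over 81 L1210 cells were taken from 10533 others by Spearman correlation. For Igll1 they were Vpreb1 (0.659), Rab3a (0.552), Alpl (0.495), Cd79a (0.494) and Gstp1 (0.493). For Vpreb2 they were Bace1 (0.634), Vpreb1 (0.514), Tcam1 (0.489), Pms2 (0.487) and Bri3bp (0.473). For Vpreb3 they were Pou2f2 (0.442), an octamer-binding factor, Plcg2 (0.435), a phospholipase of B-cell receptor signalling, Tspo (0.411), Ramp1 (0.405) and S100a3 (0.405). With detected genes taken out by regression, the values for Vpreb2 were 0.530 (Bace1), 0.408 (Vpreb1), 0.353 (Tcam1), 0.453 (Pms2) and 0.220 (Bri3bp). Rab3a with Igll1 then stood at 0.393, the others with Igll1 at 0.533 to 0.693 and those with Vpreb3 at 0.401 to 0.516. Tcam1, like Vpreb2, was listed at 0 in all CD8+ T-cells. These are leaders picked from many genes and are not tested.

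The other genes of the pathway were described by lists of B-lineage genes, of which 57 of 58 were in the table. Among 23 genes of pre-B and B-cell receptor signalling and surface, 14 had a mean at least 4 times higher in L1210 and 1 at least 4 times lower, with a median log2 ratio of 2.64 against 0.07 over all genes. Plcg2, at a median of 335 TPM, and Blnk, the adaptor that ties the receptor to it, at 219 TPM, had log2 ratios of 7.49 and 7.75. Cd81, a tetraspanin of the B-cell surface, had a mean of 273 TPM and a log2 ratio of 5.69. The gene that was lower, named after its value was seen, was Spn, at 20.7 TPM against 88.6 TPM in CD8+ T-cells.

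The transcription factors divided. Of 22, 7 were at least 4 times higher in L1210 cells and 4 at least 4 times lower, and the median log2 ratio was 0.51. Sfpi1, the gene of the myeloid and B-lineage factor PU.1, was at a mean of 114 TPM and listed at 0 in all CD8+ T-cells. Tcf4 and Bcl11a had log2 ratios of 5.77 and 5.51, Pou2af1, a coactivator of octamer factors, one of 4.65, and Irf8 one of 1.26 at a mean of 162 TPM. The lower genes, named after their values were seen, were Id2 (log2 ratio -5.56), Ikzf3 (-4.78), Id3 (-3.60) and Ets1 (-2.01). Of 12 genes of V(D)J recombination and end joining, 2 were at least 4 times higher, Dntt, the polymerase that adds bases at junctions, with 3.54, and Dclre1c, the Artemis nuclease, with 2.60. The median of that list was 0.14, and Hmgb1, a chromatin protein, was at 609 TPM in L1210 and 763 TPM in CD8+ T-cells.

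**Figure D5:**
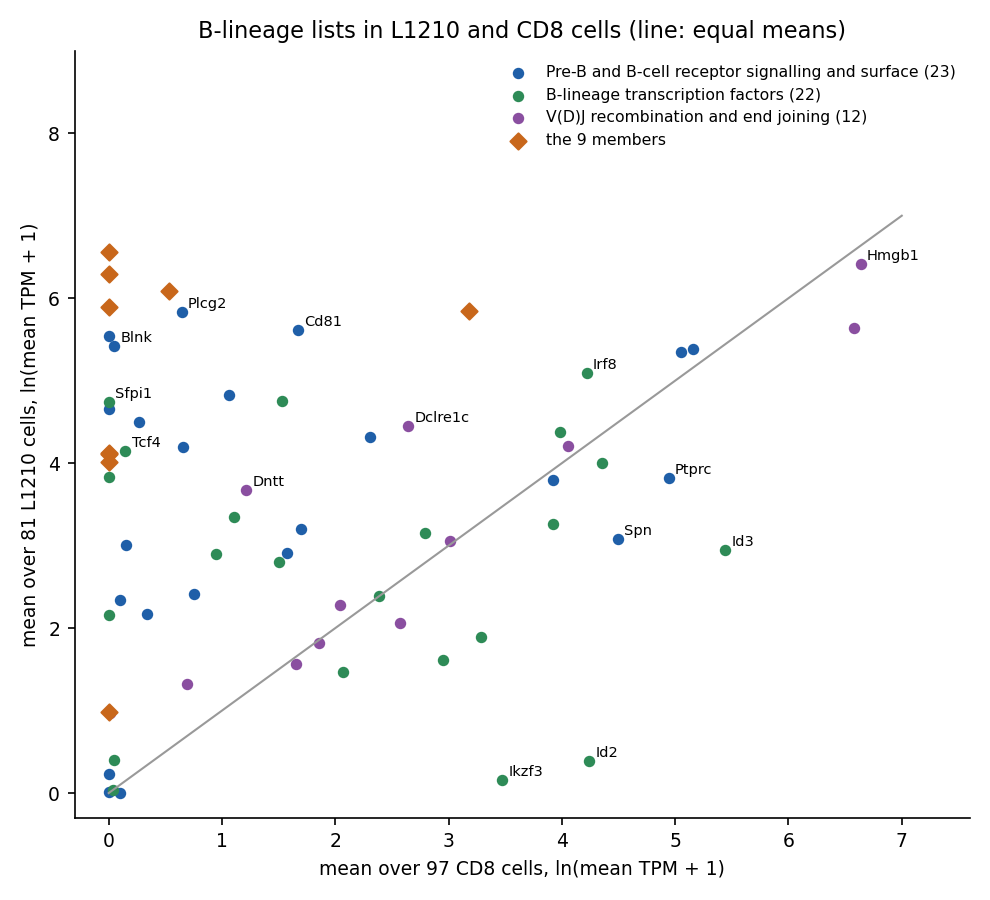
Each point is a gene, with ln(mean TPM + 1) over 97 CD8 cells on the horizontal and over 81 L1210 cells on the vertical axis, for 3 lists (blue, green, purple) and the 9 members (orange diamonds); the grey line marks equal means. Of the 9 members, 7 stand at 0 on the CD8 axis and Cd79a and Cd79b to their right; Blnk lies near the left edge, Hmgb1 near the line and Id2 and Ikzf3 below it.

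The list genes, which the rule did not use, were tested for differences between L1210 lineages. In limma's F-test over 24 lineages and 79 cells, 16 of the 50 list genes tested had an adjusted p under 0.05, against 13.5% of all 10534 genes, and their median F was 1.72 against 1.40 over all genes. With detected genes and hours as covariates 7 of 50 were called, against 3.71% of all genes. Called at both were Cd72, Il7r, Erg, Id3, Lig4, Hmgb2 and Ptpn6. Hours lie almost wholly between lineages (intraclass correlation 0.957), so the fit with covariates cannot separate lineage from hours. Why a call was lost in it was not tested. Without L1210_15, 16 were again called, 14 of them shared with the first 16, and the calls of Ptpn6 (adjusted p = 0.082) and Pik3ap1 (0.0506) were lost. With cells of 4000 or more detected genes 16 were called, 10 of them shared, and among those lost were Cd22 (0.0507), Pou2af1 (0.0624), Prkdc (0.0701), Dclre1c (0.0711) and Myb (0.143). The lists were chosen with earlier results of these data known.

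Of 20 signalling and surface genes tested, 7 differed between lineages. Il7r, the interleukin-7 receptor chain that sustains pro-B cells, had lineage means from 0 to 59.9 TPM (adjusted p = 0.000658), and Cd72, an inhibitory coreceptor, from 11.3 to 188 TPM (adjusted p = 0.0014). Cd22, another inhibitory receptor, ranged from 0.757 to 55.0 TPM (adjusted p = 0.00739). Ptpn6, the phosphatase such receptors recruit, Pik3ap1 and Cd81 had adjusted p values of 0.0298, 0.0294 and 0.0359. With the covariates the adjusted p of Cd22 was 0.0859, of Pik3ap1 0.106 and of Cd81 0.0603.

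Of 18 transcription factors tested, 5 differed: Erg, with lineage means from 0 to 29.6 TPM (adjusted p = 0.00109), Pou2af1 (0.00475), Bach2 (0.00505), Id3, an inhibitor of E proteins, from 0 to 103.05 TPM (0.00743), and Myb (0.0154). With the covariates Pou2af1 was at an adjusted p of 0.313, Myb at 0.194 and Bach2 at 0.0531. Of 12 recombination genes, 4 differed. Hmgb2, a chromatin protein that assists the recombinase and is high in dividing cells, had lineage means from 32.1 to 472 TPM (adjusted p = 1.66e-05), Lig4, the ligase of end joining, 0 to 19.1 TPM (adjusted p = 0.00426), and Dclre1c and Prkdc, which act on the broken ends, had adjusted p values of 0.0291 and 0.0399, and of 0.328 and 0.385 with the covariates. Rag2 and Dntt did not pass, at 0.0808 and 0.67.

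With hours since division 0 of the 50 list genes changed in limma's fit of lineage means, and 3 had an unadjusted p under 0.05, Myb (0.00287), Pou2f2 (0.00428) and Bcl6 (0.0357). All genes had 588, 5.58%, at that level. The median slope of the list genes was -0.02 per hour on the ln scale, against -0.01 over all genes.

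Cd79b in CD8+ T-cells was examined further, since no L1210 value enters it. Of 34 lineages, 28 had at least 1 cell with Cd79b. Among the 27 lineages of 2 or more cells, 4 had it in every cell, 5 in none and 18 in some. Cells with Cd79b had a median of 35.04 TPM where it was above 0, and 7444 detected genes against 6274 in the cells without it. Limma's F-test between CD8 lineages gave an adjusted p of 0.423 for Cd79b and 0.684 for Cd79a, while 12.9% of all genes passed. The slope of Cd79b with hours was -0.13 ± 0.09 (SE) per hour on the ln scale (adjusted p = 0.512), and 0.09% of genes passed. These fits were added after the L1210 values were seen.

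The other B-cell genes examined were above 0 in 0 to 37 of the 97 CD8+ T-cells. Of the 10 CD8+ T-cells with Cd79a, 8 had Cd79b. Pax5, Ebf1, Vpreb3 and Blk were listed at 0 in all 97 cells, Ms4a1 was above 0 in 1 cell and Blnk in 2, all of them with Cd79b. Cr2 was above 0 in 11 cells, 8 of them with Cd79b, Fcer2a in 7, 4 of them with Cd79b, and Cd22 in 23, 11 of them with Cd79b. Of cells with Cd79b, 21 of 47 had Cd72, and of the cells without it 16 of 50.

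The labelled cell types were checked against markers. Cd3e and Cd3g, chains of the T-cell receptor complex, were at 0 in all L1210 cells and above 0 in 97 and 96 CD8+ T-cells. Of the other T-cell markers, Thy1 was above 0 in 46 L1210 cells, Cd8b1 in 23, Cd2 in 22 and Lck in 16. Cd8a was above 0 in 10 L1210 cells, Cd3d in 8, Zap70 in 5 and Cd4 in 1. The summed TPM of 10 T-cell markers were 0 to 130 in L1210 cells and 1421 to 7092 in CD8+ T-cells. Of 9 markers of mature B cells and plasma cells, Xbp1 was above 0 in 77 L1210 cells, Sdc1 in 61, Cr2 in 54, Cd74 in 20, Fcer2a in 15, H2-Aa in 4, Ms4a1 and Igj in 1 each and Prdm1 in 0, with a summed level of 0 to 293 TPM in L1210 cells and 0 to 1299 TPM in CD8+ T-cells. Of 7 myeloid markers in the table, Lyz2 was above 0 in 36 L1210 cells, Cd14 in 41 and Fcgr1 in 44. Itgam was above 0 in 6, Mpo in 2, Csf1r in 1 and Elane in 0, and the summed level of the list was 0 to 216 TPM. Of the erythroid markers, Klf1 was above 0 in 12 L1210 cells, Hba-a1 in 5 and Gata1 in 0. The part of these markers in the results was not tested. Kit, found on early progenitors, was at 0 in all L1210 cells and Flt3 above 0 in 1.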

How the data were processed

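Single-cell libraries were prepared with Smart-Seq2 from cells tracked in the trap array. The authors estimated expression with RSEM (version 1.2.3 in the submitters' processing notes, which also name TopHat2 and bcl2fastq) for UCSC-annotated mouse genes of mm10, and deposited it as TPM, not log-transformed, for 23420 gene names, 27 of which a spreadsheet had turned into dates. A single ribosomal RNA precursor, Rn45s, took 11.4 to 79.3% of the TPM of an L1210 cell (median 21.9%). TPM keep no counts, so no count model was used. The filter of the study's methods left 81 L1210 cells here, which is not the number given there, and the library that makes the difference is not known.

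The members and lists were chosen with earlier results of these data known. Cells were kept with 1000 or more genes above 0 TPM and no doublet label. Lineages were rebuilt from sister and cousin labels that name each other. Levels were ln(TPM + 1), and a gene was tested when this exceeded 1 in more than 10% of cells. Differences between lineages (F-test) and slopes on lineage means against hours were fitted in limma over all genes tested, with Benjamini-Hochberg adjustment at 0.05. Ratios between cell types are of mean TPM + 1, called at 4-fold, with no test. P values of the slope fits cover the spread between lineages. Those of the F-test set differences between lineages against the spread of cells within them. Neither covers cultures or mice, and the intervals and the floor of 3 cells cover counting error only.

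All 9 members are named. Of the lists, every gene called was named except 1 that is not reported here, with the 3 of highest mean and the 3 of largest ratio in each. For Vpreb3, Vpreb2 and Igll1 the 5 genes of highest Spearman correlation were named. On simulated data with 200 genes given an effect of 1 SD, the L1210 lineage F-test recovered 89.5% (13 unchanged genes called). The L1210 slope fit recovered 100% (36), both among 10534 genes. For the CD8 F-test it was 96% (20) and for the CD8 slope fit 100% (25), among 9995 genes. The simulated noise was normal and independent between cells, unlike these data with their zeros and the likeness of relatives. Weaker effects were not simulated, so the recovery does not say how many weak slopes were missed. Alternatives were pseudocounts of 0.1 and 10 TPM, minima of 2000 and 4000 genes, TPM rescaled without Rn45s, other gene filters, covariates, and omission of L1210_15 or of each lineage. Spi1 was found as Sfpi1, and Ighm was not analysed here. Promoters and annotation come from RefSeq and GENCODE, both on GRCm38. Fits were run in R 4.3.3 with limma 3.58.1, and the rest in Python 3.11.15 (pandas 2.3.3, scipy 1.17.1, numpy 2.4.6).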

Additional observations from a re-analysis of the deposited data

Results flagged for a closer look

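Signal of the members was also present in libraries that no comparison used. L1210_41, left out with 689 detected genes, held 3285 TPM of Vpreb1, 2162 TPM of Vpreb3 and 2863 TPM of Igll1, each above the highest value among the 81 L1210 cells used, and the 6 other members at 0. CD8_43, left out as a doublet, held 47.5 TPM of Vpreb3, which was at 0 in all 97 CD8+ T-cells used, and its Vpreb1, Igll1, Cd79a and Cd79b were at 0.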

How the results depend on the processing

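Of the counts, 2 moved past 1.5 times. The log2 ratios of Cd79a and Cd79b between cell types were set against the SD of log2 lineage means in L1210 cells. That of Cd79a moved past it in 3 of 6 alternatives and that of Cd79b in 1 of 6. With a minimum of 4000 genes, 1 member (Cd79b) in place of 0 was in more than 50% of CD8+ T-cells. With detected genes and hours as covariates, 7 list genes in place of 16 differed between L1210 lineages. The other 8 settings gave 14 to 17, of which 10 to 16 were shared with the 16, the fewest with a minimum of 4000 genes. The log2 ratio of Cd79a lay between 5.40 and 9.10 and that of Cd79b between 3.43 and 8.29. The percent lower difference of Vpreb3 among relatives lay between -54.0 and -43.8 over 36 alternatives, and between -49.5 and -43.8 when each lineage was left out. The Spearman correlation of Vpreb2 with hours lay between -0.308 and -0.201 over 35 alternatives, the extremes reached on leaving out lineages. The 10 alternatives for list genes against hours each called 0. Of 90 shares of cells recomputed, 9 left the interval of the main value. Above 10 TPM, Rag1 was in 4.94% of L1210 cells in place of 27.2%. In CD8+ T-cells Cd79a was above 10 TPM in 1.03% in place of 10.3%, and Cd79b in 38.1% in place of 48.5%. The adjusted p of Cd79b between CD8 lineages lay between 0.367 and 0.561. No paired analysis was possible because the numbers shared by L1210 and CD8 titles only name libraries and the comparison of the cell types comes from no test. TPM give no depth, so no floor in reads could be set.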
